A study of Mus musculus with 9 samples.

Results

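The cells described here are the reporter-negative stromal fibroblasts of mouse mammary tumours, 136 of 58645 cells kept from 9 tumour libraries. A cell was kept with more than 500 and fewer than 7500 genes and under 15% mitochondrial UMIs. They were chosen by their own counts of unique molecular identifiers (UMIs, each of which stands for 1 captured RNA molecule). A member had no UMI of the tumour reporter H2BMc or of the keratin Krt8, and none of the pan-leukocyte gene Ptprc, the endothelial gene Pecam1 or the pericyte gene Rgs5. It held at least 1 UMI each of Col1a1, Col1a2 and Dcn, and its summed Col1a1, Col1a2 and Col3a1 reached at least 50 per 10000 UMIs. Of the kept cells, 18843 had neither Krt8 nor H2BMc, 16767 of those had none of the other excluded genes, 149 passed the 3 matrix genes and 136 passed the collagen limit as well. The 3 members nearest to the limit stood at 53.6, 55.2 and 56.2 per 10000, and the 3 nearest cells outside it at 45.5, 38.5 and 38.5.

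The tumours grew from 168FARN, a mouse mammary carcinoma line that carries a stable H2B–mCherry transgene (H2BMc), after injection into the mammary fat pad of female BALB/c mice bought at 5 to 6 weeks of age. There were 3 tumours from unedited cells (WT), 3 from cells edited in Kmt2c (Kmt2c KO) and 3 from cells edited in Kmt2d (Kmt2d KO), which are genes of histone methyltransferases that mark enhancers. Each knockout was made with 3 pooled guides against exon 1 in a sorted cell population, so that it is a mixture of edits. Only the injected cells carry the edit, and the fibroblasts of all 9 mice come from unedited hosts. Whole tumours were digested, stored frozen and cleared of debris on Percoll before the RNA at the 5′ end of transcripts was sequenced. Libraries are called WT 1 to 3, Kmt2c KO 1 to 3 and Kmt2d KO 1 to 3, where the number is only a name.

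Fibroblasts build and remodel the connective tissue of the mammary gland. They secrete fibrillar collagens, proteoglycans and elastic fibre proteins, cross-link them with lysyl oxidases, and cut them with metalloproteinases. In tumours they are known as cancer-associated fibroblasts, a group that ranges from contractile myofibroblasts to cells that release cytokines, chemokines and complement. Adventitial fibroblasts around vessels, marked by Pi16 and Dpp4, are seen as a reserve population in many tissues. Fibroblasts also answer interferons, cytokines that immune cells release, with chemokines that attract T cells and with genes of antigen presentation.

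Of the 9 libraries 4 gave fewer than 10 of these cells, which limits the precision of every value below. WT 1, 2 and 3 held 17, 2 and 8 members, Kmt2c KO 1, 2 and 3 held 18, 15 and 9, and Kmt2d KO 1, 2 and 3 held 44, 20 and 3. Together the members held 775359 UMIs, with a median of 4440 UMIs and 1962 genes per cell. Pooled by genotype, the median per cell reached 8362 UMIs for WT, 4788 for Kmt2d KO and 2956 for Kmt2c KO, so that depth per cell differed between the groups. The limit of 15% on mitochondrial UMIs removed 50.7%, 26.6% and 68.5% of the barcodes of WT 1, 2 and 3, 13.0%, 14.8% and 29.5% of those of Kmt2c KO 1, 2 and 3, and 27.2%, 24.0% and 23.5% of those of Kmt2d KO 1, 2 and 3. No barcode occurred in more than 1 library among the members, although 11 member barcodes also named a kept cell of another library. A ribosomal RNA-overlapping transcript, Gm42418, took 31899 CPM in fibroblasts against 7637 CPM in tumour cells, on a scale where 1% of a pool's UMIs is 10000 CPM, and its part in the results below was not tested.

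Serping1 and Slit3 were not used to choose the cells, but came with the label as its markers. Earlier results of these data were known then, so the pair is no independent check. Serping1 encodes the inhibitor of the C1 complement protease and Slit3 a secreted guidance protein. At least 1 UMI of Serping1 was present in 89.7% of the fibroblasts and in 1.10% of the matrix-producing tumour cells defined below, and Slit3 in 94.1% and 1.16%. After each cell was thinned to 1000 UMIs, which left 131 of the 136 fibroblasts, the shares were 64.1% and 0.388% for Serping1 and 64.9% and 0.194% for Slit3. In 1214 Ptprc-positive cells, a leukocyte class that should lack both and whose median depth was 1806.5 UMIs, the shares were 0.247% and 0%. Both markers were therefore far above the level that free RNA gave in leukocytes.

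Some defining markers of other cell types were at 0, whereas 9 of 10 mural and 11 of 13 macrophage genes had at least 1 UMI in the pooled fibroblasts. The part of such cells or of free RNA in the results below was not tested. The 22 epithelial genes summed to 15.5 CPM in the fibroblasts, with Epcam and Cdh1 at 0, and the second tumour keratin Krt18 was at 0. The matrix-producing tumour cells defined below held 1.27 CPM of the 22 genes, so this list cannot show whether tumour cells are present. The 13 macrophage genes summed to 98.0 CPM, of which Apoe gave 58.0, with Cd68 and Adgre1 the only ones at 0 and a range over libraries of 50.5 to 449 CPM. Macrophage genes other than Apoe were seen in 20 of the 136 members (14.7%). The 12 lymphocyte genes summed to 2.58 CPM, the 8 skeletal muscle genes also to 2.58 CPM and the 6 Schwann genes to 9.03 CPM. Among the 10 endothelial genes Cdh5, Emcn, Cldn5 and Tie1 were at 0 and the sum was 91.6 CPM, mostly Eng. The 10 mural genes summed to 249 CPM, with only Mcam at 0, and were seen in 57 of the 136 members (41.9%). The 8 adipocyte genes summed to 192 CPM, nearly all Lpl, with Adipoq, Plin1 and Cidec at 0.

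**Figure D1:**
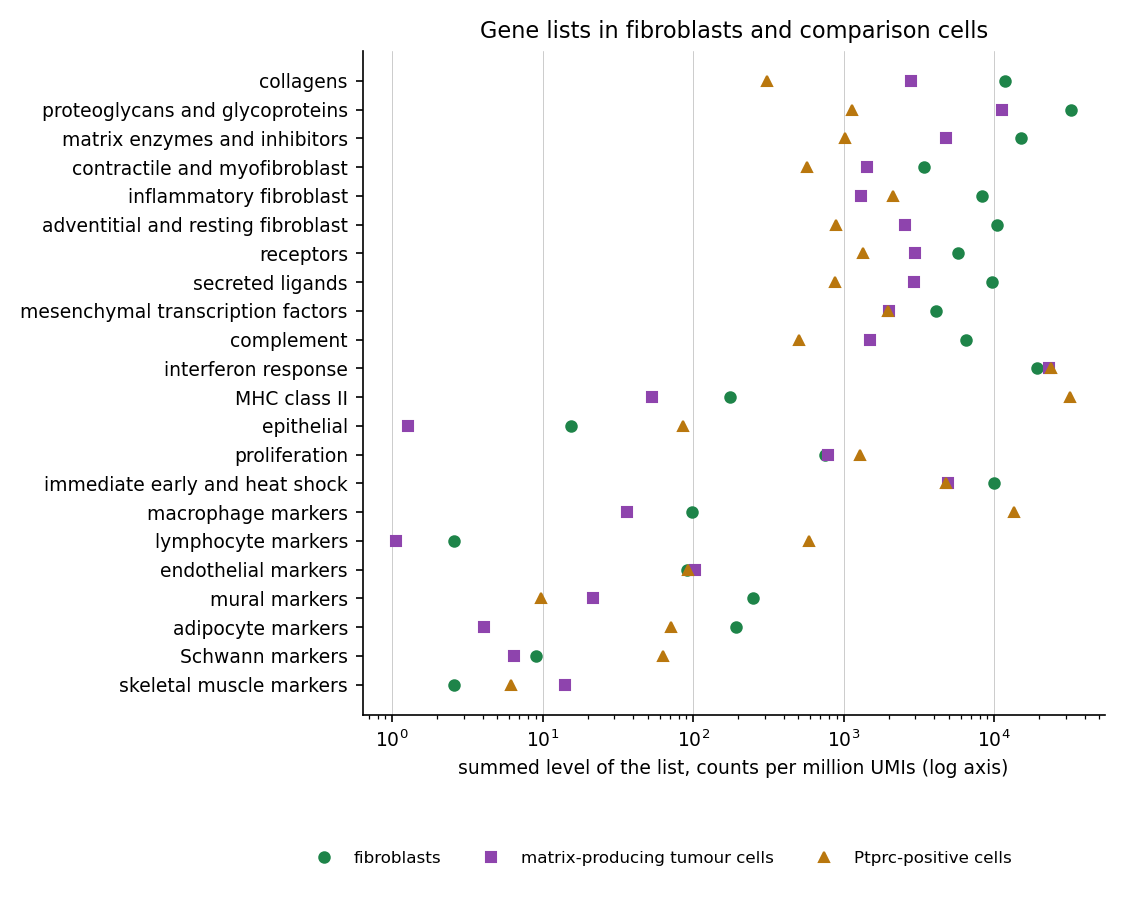
Summed level of each gene list in CPM (log axis) for the pooled fibroblasts, the matrix-producing tumour cells and the Ptprc-positive cells, with 1 point per class and values under 0.5 drawn at 0.5. The fibroblasts lead in collagens, at 11783 CPM against 2806 CPM in tumour cells, and lie near the bottom of the axis for lymphocyte markers at 2.58 CPM.

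The fibroblasts varied widely among themselves. The 3 rule collagens together made up a median of 327 and at most 1143 of every 10000 UMIs in a member. Col1a1 ran from 9.37 to 570 per 10000 with a median of 117, and Dcn, the small proteoglycan decorin, from 2.83 to 147 with a median of 41.0. The adventitial genes Pi16 or Dpp4 were seen in 86 members, the chemokines Ccl2 or Ccl7 in 88, the acute-phase gene Saa3 in 53, the collagen-associated gene Cthrc1 in 60 and the smooth muscle actin Acta2 in 13. A cell without a UMI may still express the gene: the median depth was 5833 UMIs in the cells with Pi16 or Dpp4 and 3130 in those without. The interferon-induced chemokine Cxcl9 went the other way, with 36 cells that held it at a median of 3557 UMIs and a median of 4967 in the rest.

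The first comparison asked whether the share of fibroblasts differed between genotypes. Fibroblasts made up 1.43%, 0.0840% and 0.852% of kept cells in WT 1, 2 and 3. The shares were 0.152%, 0.172% and 0.149% in Kmt2c KO 1, 2 and 3, and 0.734%, 0.284% and 0.0207% in Kmt2d KO 1, 2 and 3. The Kmt2c KO libraries lay close together, whereas WT and Kmt2d KO each spread widely and overlapped with both other groups. The mean share was 0.790% ± 0.677 (SD, n = 3) for WT, 0.346% ± 0.361 for Kmt2d KO and 0.158% ± 0.0120 for Kmt2c KO. When all 1680 assignments of libraries to groups were enumerated for the Kruskal-Wallis statistic, this exact test gave p = 0.629, where the smallest p it allows is 0.00357. Each knockout against WT gave p = 0.4 in a two-sided exact permutation test, both before and after adjustment over the pairs, and 3 against 3 cannot go below 0.1. A difference in share was thus not detectable with these libraries. WT 1 and 3, with the highest shares, were also the libraries that lost the most barcodes to the mitochondrial limit, whose part in the shares was not tested.

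**Figure D2:**
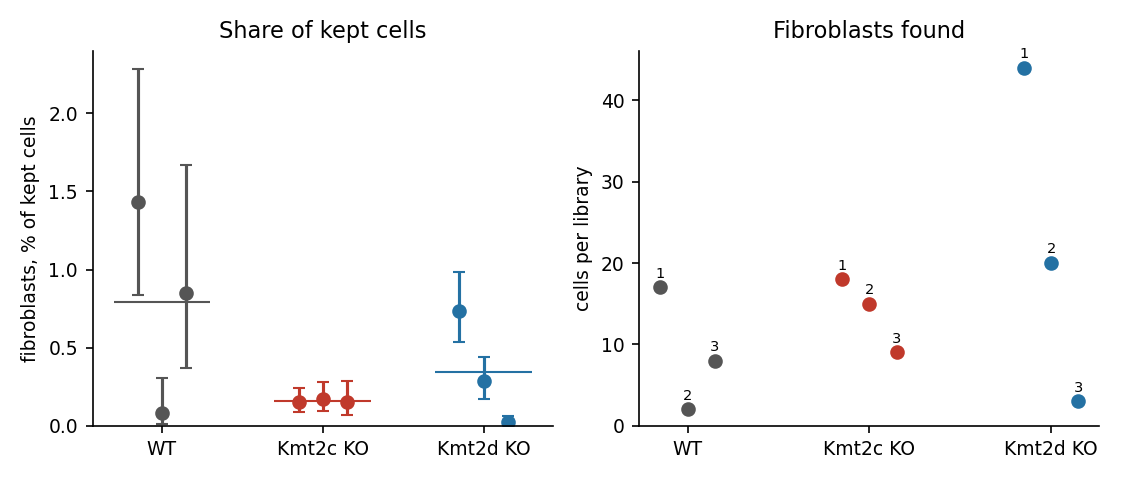
Left, fibroblasts as a percentage of kept cells in each of 9 libraries (points) with exact 95% binomial intervals (bars) and the group mean (line). Right, the number of fibroblasts found per library, from 2 in WT 2 to 44 in Kmt2d KO 1.

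The second comparison set the fibroblasts beside the matrix-producing tumour cells of the same tumours. These are 1546 cells with at least 1 UMI of Krt8 or H2BMc, at least 1 UMI of Col1a1, Col1a2 or Col3a1 and at least 1 of Dcn, under the same exclusions, with a median of 11344 UMIs. Only 6 of them passed the collagen limit of the fibroblasts, 4 of those in Kmt2c KO 1. H2BMc was seen in 45.0% of the class, at 55.8 CPM. The genes that chose the classes are given as levels only. Col1a1 stood at 14762 CPM in fibroblasts and 73.1 in tumour cells, Col1a2 at 9126 and 18.4, Col3a1 at 16676 and 295, and Dcn at 4652 and 432.

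Counts were summed per library and class in the 5 libraries with 10 or more fibroblasts, namely Kmt2c KO 1 and 2, Kmt2d KO 1 and 2 and WT 1, and were compared in edgeR (quasi-likelihood test) with the library as a block. A gene was called at a Benjamini-Hochberg adjusted p under 0.05. Of 8436 genes, 2627 (31.1%) were called, 1417 (16.8%) higher and 1210 (14.3%) lower in fibroblasts, with a median log2 difference of -0.09 over all genes. Fibroblasts and tumour cells differ in depth and Gm42418 content as given above. In every library here but WT 1 the tumour cells carry an edit that the fibroblasts lack, so class and edit go together there. The part of the edit in the differences between classes was not tested in this comparison. With each cell thinned to 1000 UMIs, 743 of 1755 tested genes were called, 429 higher and 314 lower. The part of Gm42418 in the calls was not tested. Counts of list members below are read against the shares called without thinning.

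Serpine2, a secreted inhibitor of thrombin and plasminogen activators, was among the 10 largest rises. Its level was 269, 195, 206, 50.9 and 109.8 CPM in the fibroblasts of Kmt2c KO 1, Kmt2c KO 2, Kmt2d KO 1, Kmt2d KO 2 and WT 1, and it had no UMI in the tumour cells of these libraries. Ptx3, a soluble pattern recognition protein, was at 14.9, 39.0, 291, 65.5 and 83.9 CPM in the fibroblasts of the same libraries and had none in their tumour cells either. The 10 largest rises and falls were taken among called genes with the same direction in every library compared. Their agreement across the 5 libraries was thus fixed by that choice. Against a group at 0 the fitted fold depends on the prior count. No fold is therefore given for Serpine2, Ptx3, Ndn and Tubb2b, which had no UMI in these tumour cells. Also among the 10 largest rises were Cyp7b1 (log2 difference 10.16 ± 0.40, SE), an oxysterol hydroxylase, Ndn, Grb10, an adaptor of the insulin receptor, the secreted peroxidase Gpx3 (9.52 ± 0.49), Gfpt2, the WNT modulator Sfrp2 (9.22 ± 0.68) and Tubb2b. Pooled levels were 380.5 and 0.102 CPM for Cyp7b1, 694 and 0.457 CPM for Gpx3 and 784 and 0.457 CPM for Sfrp2.

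At the other end stood genes that mark the tumour cells. Ptgds, which makes prostaglandin D, was at 49.4, 72.1, 184, 150.4 and 169 CPM in tumour cells of the same 5 libraries and had no UMI in their fibroblasts. Eva1c, Gm15398, Fyb and Igf2 likewise had no UMI in the fibroblasts. Of these Igf2, a growth factor, was at 38.1, 51.6, 6.92, 82.9 and 29.7 CPM in tumour cells. Spp1, the secreted phosphoprotein osteopontin, stood at 10495, 12177, 18323, 9122 and 13384 CPM in tumour cells and at 1821, 273, 463, 21.8 and 6.46 CPM in fibroblasts. It was lower in the fibroblasts, by a log2 difference of -5.79 ± 0.65 (adjusted p = 3.79e-07, edgeR). The other falls among the 10 largest were Foxd1 (-5.84), the protease inhibitor Slpi (-5.80), the tight junction gene Cldn9 (-5.30) and the nuclear receptor Nr2f1 (-5.06).

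Structural matrix genes beyond the rule collagens were broadly higher in fibroblasts. The fibroblasts were chosen by a collagen limit that only 6 tumour cells passed. This choice favours matrix genes that go with the rule collagens, so their differences are a description, and its part in them was not tested. Of 18 further collagen genes 15 were tested, of which 10 were higher and 1 lower, with a median log2 difference of 2.49. Col14a1, which binds fibril surfaces, was at 791, 77.9, 1002, 1339 and 1530.3 CPM in the fibroblasts and at 9.88, 0, 0.769, 1.93 and 0.742 CPM in tumour cells, a difference of 9.08 ± 0.54. Col12a1, its relative, was at 731, 3779, 286, 429 and 452 CPM in the fibroblasts and at 120.0, 0, 0.256, 0 and 0 CPM in tumour cells. Its tumour signal sat in Kmt2c KO 1 almost alone, the library that holds 4 of the 6 tumour cells over the collagen limit. The exception was Col8a1, a network collagen of vessel walls, which was lower by a log2 difference of -1.46 ± 0.38.

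Proteoglycans, glycoproteins and the enzymes that work on them moved the same way. Of 37 proteoglycans and glycoproteins 35 were tested, 29 were higher and 0 lower, with a median of 3.61. Postn, a matricellular protein, was at 1076 CPM against 1.93 CPM (8.29 ± 0.56), and the microfibril genes Mfap5 (7.68 ± 0.40) and Fbn1 (7.61 ± 0.48) were called as well. Sparc, a collagen-binding protein, was abundant in both classes, at 9632 and 1180.5 CPM, and its difference was smaller (2.95 ± 0.31). Of 35 matrix enzymes and inhibitors 32 were tested, 23 were higher and 0 lower, with a median of 3.29, among them the aggrecanase Adamts5 (8.27 ± 0.37) and the lysyl oxidase Loxl1 (4.16 ± 0.28). The stromelysin Mmp3 was not called and had no common direction (log2 difference 0.24 ± 0.52, adjusted p = 0.771, edgeR). Its level was 672, 0, 286, 386 and 336 CPM in fibroblasts and 497, 811, 264, 323 and 66.0 CPM in tumour cells. In WT 1, the only library compared whose tumour cells are unedited, it was at 336 CPM in fibroblasts and 66.0 CPM in tumour cells.

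Both contractile and inflammatory genes were higher in fibroblasts. Of 20 contractile and myofibroblast genes 17 were tested, 13 were higher and 1, the actin-binding Cnn2, was lower (-1.41 ± 0.29), with a median of 3.08. The largest rises were Cthrc1 (8.16 ± 0.58), which is linked to collagen deposition, and the matricellular gene Ccn2 (7.17 ± 0.62). Acta2 itself was scarce: 0, 39.0, 50.5, 58.2 and 0 CPM in the fibroblasts of the 5 libraries, seen in 9.56% of members. Of 25 inflammatory fibroblast genes 21 were tested, 16 were higher and 0 lower, with a median of 2.90. The eosinophil chemokine Ccl11 was at 433, 896, 792, 720.3 and 387 CPM in fibroblasts and 1.41, 0, 2.31, 0.964 and 1.48 CPM in tumour cells (8.88 ± 0.40), with no overlap. Chemokines shared with the tumour cells differed less, with Ccl2, which attracts monocytes, at 2.32 ± 0.31 and Cxcl12, which attracts leukocytes, at 2.21 ± 0.23.

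Of 24 genes of adventitial and resting fibroblasts 21 were tested, 18 were higher and 1 lower, with a median of 3.97. Dpp4, a surface peptidase, was at 44.8, 0, 185, 167 and 297 CPM in fibroblasts and 2.82, 0, 0, 0 and 0 CPM in tumour cells, so that the Kmt2c KO 2 fibroblasts had none (8.83 ± 0.58 overall). Thy1, a surface glycoprotein of stromal cells, was at 910.5, 1091, 901, 800.4 and 1227 CPM in fibroblasts and 16.9, 0, 1.79, 1.93 and 2.97 CPM in tumour cells (8.28 ± 0.51). Pi16 was called too (4.42 ± 0.35), yet tumour cells also held it, at 81.9 CPM pooled. The lower gene was the ferritin receptor Scara5 (-1.35 ± 0.32), and Cd34, often taken as a marker of resting fibroblasts, was at 355 and 396 CPM and was not called (0.01 ± 0.29). The study's own short marker sets, with which it annotated these cells and which are no independent evidence, gave 3 of 3 higher for its inflammatory set (Col14a1, Clec3b, Dpt; median 3.61) and 2 of 2 for its myofibroblast set (Col12a1, Pdgfrb; median 4.40).

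**Figure D3:**
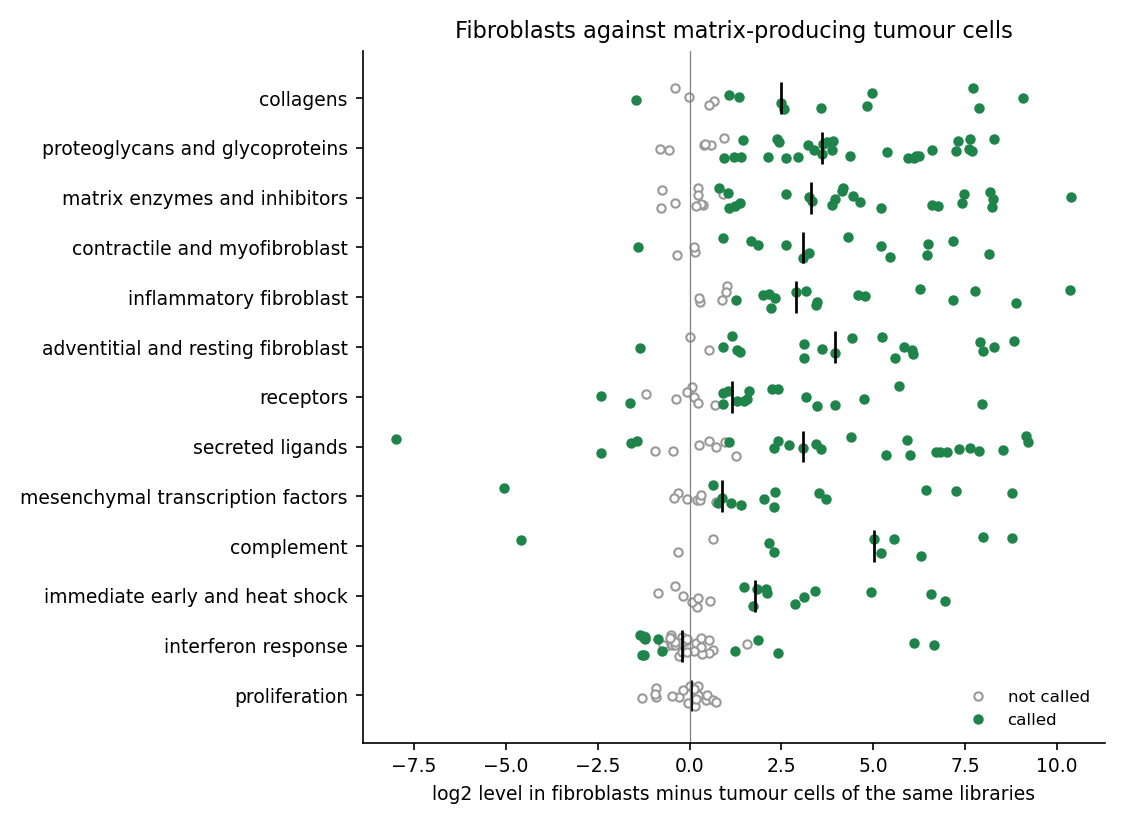
Log2 difference of fibroblasts minus tumour cells of the same 5 libraries for each tested member of 13 gene lists (1 point per gene, filled where edgeR's adjusted p was under 0.05, black bar at the list median). Medians run from -0.22 in the interferon list and 0.03 in proliferation to 5.02 in complement.

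Receptors and secreted ligands were called higher more often than lower. Of 28 receptors 24 were tested, 15 were higher and 2 lower, with a median of 1.16. Egfr, the EGF receptor, was at 254, 409, 211, 175 and 213 CPM in fibroblasts and 4.24, 0, 0.512, 0.964 and 0.742 CPM in tumour cells (7.96 ± 0.40). Pdgfra, the PDGF receptor widely used to mark fibroblasts, was high in both classes, at 348 and 170.0 CPM (1.29 ± 0.28). The HGF receptor Met (-2.40 ± 0.47) and the semaphorin co-receptor Nrp2 (-1.62 ± 0.38) were lower. Of 40 secreted ligands and binding proteins 31 were tested, 20 were higher and 4 lower, with a median of 3.08. Besides Sfrp2, the WNT modulator Sfrp4 (9.17 ± 0.76) rose most, while the KIT ligand Kitl (-2.42 ± 0.28) and the growth factor Pdgfa (-1.59 ± 0.44) were lower, with Igf2 and Fgf10.

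Among 30 mesenchymal transcription factors 21 were tested, 13 were higher and 1, Nr2f1, was lower, with a median of 0.88. The rises were led by Osr1 (8.78 ± 0.53) and Hic1 (7.25 ± 0.68), which mark fibro-adipogenic and quiescent mesenchymal progenitors in other tissues. Twist1, at 223 and 307 CPM, and Prrx1, at 298 and 295 CPM, were not called (-0.43 ± 0.26 and 0.20 ± 0.23). The tumour cells thus carried these mesenchymal regulators at levels that the test did not separate from those of fibroblasts.

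Complement stood out for its median of 5.02, from 11 tested of 14 genes, 8 higher and 1 lower. C3, the central component, was at 2388, 2552, 2434, 3434 and 1866 CPM in fibroblasts and at 124, 159, 34.8, 234 and 2.23 CPM in tumour cells of the 5 libraries. The fibroblasts were higher in each library (5.20 ± 0.54), and the tumour values differed far more between libraries than the fibroblast values did. Serping1 (8.77 ± 0.73) and the alternative pathway factor Cfb (6.30 ± 0.44) were called, and C4b (5.02 ± 0.51) has a near-identical copy in the genome, so its counts are uncertain. Clu, an extracellular chaperone that inhibits the terminal complex, was the gene that was lower (-4.60 ± 0.47).

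All 40 genes of the interferon list were tested, with 5 higher, 8 lower and a median of -0.22, a share called near the 31.1% of all genes. Cxcl9 was the largest rise (6.66 ± 0.52), although its fibroblast levels ran from 0 in WT 1 to 2455 CPM in Kmt2c KO 2. The small membrane protein Ifitm1 (6.10 ± 0.90), Ly6a, Zbp1 and Cxcl10 also rose. The guanylate-binding protein Gbp2 (-1.36 ± 0.32), the translation inhibitor Ifit2 (-1.24 ± 0.37), Ifit1, Igtp, Rtp4, B2m, H2-K1 and H2-D1 were lower. Ly6a and the H2 genes have close relatives whose reads the counting could split. Of 7 MHC class II genes 4 were tested and 1, H2-Ab1, was higher, with a median of 0.57.

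Immediate early and heat shock genes, which dissociation of tissue is known to induce, were called higher in 11 of 18, with 0 lower and a median of 1.78. The stress factor Atf3 (6.97 ± 0.56) and the chaperone Hspa1a (6.57 ± 0.37) led them, and Fos (2.86 ± 0.33) was called as well. None of the 19 tested of 20 proliferation genes was called in edgeR or in DESeq2, with 3 at an unadjusted p under 0.05 in edgeR and a median of 0.03. Mki67, a marker of cycling cells, stood at 65.8 and 54.0 CPM (0.14 ± 0.35). Against all cells with Krt8 or H2BMc its difference was -1.46 and was called. Of the marker lists of other cell types, only Apoe (3.32 ± 0.52) of the macrophage list, Eng (1.69 ± 0.35) of the endothelial list, Kcnj8, Abcc9 and Ndufa4l2 of the mural list and Lpl (8.35 ± 0.41) of the adipocyte list were higher, and the endothelial Plvap was lower (-1.43 ± 0.39). The median was 0.13 over 2 endothelial genes and 6.78 over 3 mural genes, and no epithelial, lymphocyte, Schwann or skeletal muscle gene had enough counts to be tested.

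The third comparison was between genotypes within the fibroblasts, and asked what host cells showed in tumours of edited cells. It used the 7 libraries with 8 or more members, which left out WT 2 and Kmt2d KO 3, and 1437 genes passed the filter on low counts. A gene could pass on the libraries of 1 group alone. Genes low in WT thus entered through the groups where they were high, which favours calls higher there. The libraries are described as separate tumours, so that p-values measure the spread between tumours, and 2 WT libraries of 17 and 8 cells carry every contrast with WT. Against WT, the Kmt2c KO fibroblasts gave 5 called genes (0.348%), 4 (0.278%) higher and 1 (0.0696%) lower, and 218 had an unadjusted p under 0.05. For Kmt2d KO against WT none (0.0%) was called by edgeR or by DESeq2, with 50 genes at an unadjusted p under 0.05 in edgeR. Between the knockouts none (0.0%) was called by edgeR either, with 225 at an unadjusted p under 0.05, whereas DESeq2 called 20. The guides act in tumour cells only, and counts per gene do not show whether exon 1 was edited.

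Irf1 (ENSMUSG00000018899), a transcription factor at the head of the interferon response, was at 19.4, 0 and 0 CPM in WT 1, 2 and 3. Its level was 478, 253 and 463 CPM in Kmt2c KO 1, 2 and 3 and 135, 102 and 94.8 CPM in Kmt2d KO 1, 2 and 3. All Kmt2c KO libraries lay above all others, and the WT value rested on 3 UMIs in all against 67 in Kmt2c KO. The difference of Kmt2c KO from WT was 4.76 ± 0.65 (SE) on the log2 scale (adjusted p = 0.0161, edgeR), and the pooled ratio was 28.8 with a 95% counting interval of 9.43 to 143.

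Socs3 (ENSMUSG00000053113), which dampens cytokine receptor signalling, stood at 71.0, 0 and 96.1 CPM in the WT libraries, 373, 429 and 337 CPM in Kmt2c KO and 147, 102 and 94.8 CPM in Kmt2d KO. Again each Kmt2c KO library was above every other. The log2 difference from WT was 2.28 ± 0.39 (adjusted p = 0.0433, edgeR). Plcb1 (ENSMUSG00000051177), a phospholipase that relays G protein signals, was at 25.8, 0 and 57.7 CPM in WT, 463, 857 and 1263 CPM in Kmt2c KO and 126, 65.5 and 0 CPM in Kmt2d KO. Its Kmt2c KO values stood apart from the rest, by 4.58 ± 0.66 from WT (adjusted p = 0.0167, edgeR).

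Glis3 (ENSMUSG00000052942), a Krüppel-like zinc finger factor, was at 71.0, 299 and 115 CPM in WT, 731, 526 and 442 CPM in Kmt2c KO and 177, 204 and 142 CPM in Kmt2d KO, a log2 difference of Kmt2c KO from WT of 2.74 ± 0.44 (adjusted p = 0.0283, edgeR). Hmcn1 (ENSMUSG00000066842), an extracellular matrix protein of the fibulin family, went down. It was at 491, 898 and 384 CPM in WT, 44.8, 58.4 and 42.1 CPM in Kmt2c KO and 189.5, 247 and 284 CPM in Kmt2d KO, so that the 3 groups did not overlap. The log2 difference of Kmt2c KO from WT was -3.13 ± 0.43 (adjusted p = 0.0161, edgeR). None of the 5 was called without WT 1, which leaves 1 WT library that is then assumed to vary like the other groups. The log2 differences were then 3.90 for Plcb1, 2.33 for Glis3, 2.00 for Socs3 and -2.92 for Hmcn1, each in the same direction as with all libraries. Irf1 kept its direction too, but WT 3 had no UMI of it. Its fitted value then depends on the prior count and is not given. Without Kmt2c KO 2 only Irf1 was called. Glis3 was also lost without WT 3, and Socs3 without WT 3 or Kmt2c KO 3. With each cell thinned to 1000 UMIs only 331 genes were tested. Plcb1 and Glis3 kept their direction there but missed the threshold, and the other 3 had too few counts to be tested. Gm42418 was also higher in the Kmt2c KO fibroblasts, at 42031, 37092 and 54434 CPM against 22431, 31713 and 28683 in WT. The fibroblasts of Kmt2d KO 1, 2 and 3 held 19986, 51879 and 17729 CPM of it. Its part in these differences was not tested. Depth per cell was lower in Kmt2c KO than in WT, and the thinned fit, with fewer counts, cannot tell its part from a loss of precision.

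**Figure D4:**
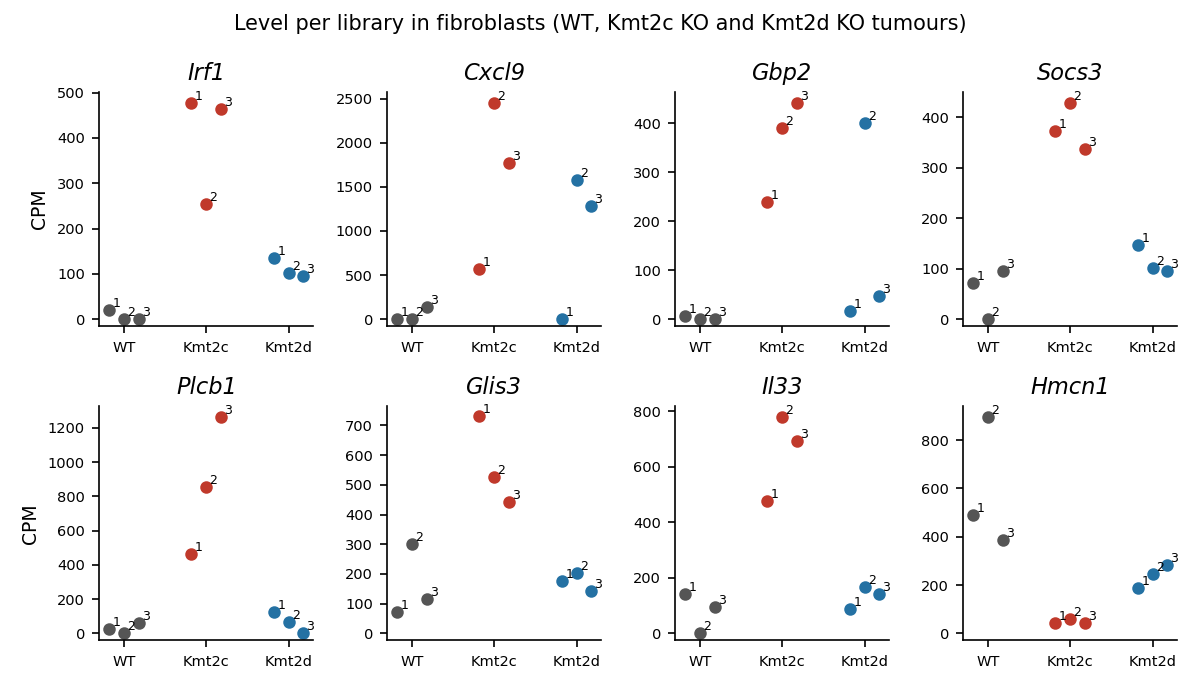
Level of 8 genes in the fibroblasts of each of 9 libraries, in CPM (1 point per library, with its number beside it, on a linear axis). Irf1, Socs3, Plcb1 and Glis3 lie highest in the 3 Kmt2c KO libraries, Hmcn1 lowest, and Cxcl9 is above 500 CPM in Kmt2c KO 1 to 3 and in Kmt2d KO 2 and 3.

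Promoters of the called genes are shown because 3 of the 5 hold the same short element. The gamma-activated site, which transcription factors activated by cytokine receptors are known to bind, was searched as TTCNNNGAA, which reads the same on both strands. The windows are the RefSeq promoters of GRCm38.p6, which is the mm10 build, from 250 bases before to 50 bases after the gene's start, printed 5′ to 3′ on the gene's strand with the element in capitals. It lies 90 bases before the start in Irf1 (chr11:53769764-53770063, plus strand), 154 in Socs3 (chr11:117969317-117969616, minus strand) and 239 in Plcb1 (chr2:134785914-134786213, plus strand). A second Irf1 window, and those of Glis3 and Hmcn1, hold none.
Irf1: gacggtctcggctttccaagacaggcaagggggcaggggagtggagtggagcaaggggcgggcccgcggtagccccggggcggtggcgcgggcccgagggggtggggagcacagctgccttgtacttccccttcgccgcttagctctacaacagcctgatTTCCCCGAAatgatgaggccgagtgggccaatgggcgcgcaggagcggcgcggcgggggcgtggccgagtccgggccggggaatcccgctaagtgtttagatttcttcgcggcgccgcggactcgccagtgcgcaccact
Socs3: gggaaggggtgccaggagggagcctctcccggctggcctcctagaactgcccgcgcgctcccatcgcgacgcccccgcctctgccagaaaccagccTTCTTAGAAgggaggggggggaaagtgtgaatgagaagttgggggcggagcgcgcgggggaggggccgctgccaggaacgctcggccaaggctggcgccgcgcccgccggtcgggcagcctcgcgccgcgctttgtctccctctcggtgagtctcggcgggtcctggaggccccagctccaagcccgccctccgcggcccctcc
Plcb1: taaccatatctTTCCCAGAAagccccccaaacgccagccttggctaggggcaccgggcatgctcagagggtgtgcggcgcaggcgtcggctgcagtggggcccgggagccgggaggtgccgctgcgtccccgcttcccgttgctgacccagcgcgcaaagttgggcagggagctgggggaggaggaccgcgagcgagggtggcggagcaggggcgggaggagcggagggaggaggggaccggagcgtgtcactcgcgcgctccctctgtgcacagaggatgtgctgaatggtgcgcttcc

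For comparison, 9.55% of 27025 genes with a promoter of this length hold the gamma-activated site in any window, and 23.5% of the 34 interferon list genes with a promoter do. The second element, the interferon-stimulated response element, was searched as GAAA, any 2 bases and GAAA on both strands. It is held by 3.99% of all genes with a promoter and 47.1% of those of the interferon list. Gbp2 (chr3:142620413-142620712, plus strand) and the chemokine gene Cxcl10 (chr5:92348840-92349139, minus strand), whose fibroblast levels follow, have 1 each, 59 and 213 bases before the start. A match is a description of letters and not evidence of binding. No called gene of the genotype contrasts holds the interferon-stimulated response element in its windows. The promoters of Cxcl9, C3 and Pi16 hold neither element in this window.
Gbp2: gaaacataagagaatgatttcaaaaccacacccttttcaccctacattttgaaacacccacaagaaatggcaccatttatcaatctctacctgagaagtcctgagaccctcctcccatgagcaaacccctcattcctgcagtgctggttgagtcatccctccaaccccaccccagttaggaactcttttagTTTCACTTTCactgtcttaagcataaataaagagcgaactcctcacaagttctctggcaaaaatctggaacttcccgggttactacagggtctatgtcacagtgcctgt
Cxcl10: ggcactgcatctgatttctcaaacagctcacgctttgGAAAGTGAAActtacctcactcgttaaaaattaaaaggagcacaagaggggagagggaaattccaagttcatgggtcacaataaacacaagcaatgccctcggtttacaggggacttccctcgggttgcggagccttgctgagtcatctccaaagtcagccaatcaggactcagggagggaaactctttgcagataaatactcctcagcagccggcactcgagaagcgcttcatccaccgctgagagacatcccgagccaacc

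The summed interferon genes were highest in the fibroblasts of Kmt2c KO, where 1 gene passed the test, and none passed it in Kmt2d KO against WT. Their summed level was 12126, 1047 and 12150 CPM in WT 1, 2 and 3. It was 25419, 40384 and 32122 CPM in Kmt2c KO 1, 2 and 3, and 12969, 25387 and 22612 CPM in Kmt2d KO 1, 2 and 3. Every Kmt2c KO library was above every WT library. Kmt2d KO 1, which holds 44 of the 67 Kmt2d KO cells, was close to WT 1 and 3, and Kmt2d KO 2 was close to Kmt2c KO 1. Of 31 tested genes 31 had a log2 difference above 0 in Kmt2c KO against WT, with a median of 1.99 beside -0.03 over all genes tested, and 1, Irf1, was called. For Kmt2d KO against WT 28 of 31 were above 0, with a median of 1.01 beside -0.04 over all genes and 0 called. Between the knockouts, for Kmt2d KO minus Kmt2c KO, 4 of 31 were above 0, with a median of -0.83 beside 0.01 over all genes and 0 called. These contrasts share libraries and genes that move together. The filter on low counts also let in genes through the group where they were high, such as Irf1. The counts of genes above 0 are therefore a description and no test of direction. The MHC class II genes, which leukocytes carry, were also highest in pooled Kmt2c KO, whereas single libraries did not follow their interferon sums. Their summed level was 343, 175 and 695 CPM in Kmt2c KO 1, 2 and 3, 12.9, 150 and 115 CPM in WT 1, 2 and 3, and 33.7, 393 and 0 CPM in Kmt2d KO 1, 2 and 3, beside 31919 CPM in Ptprc-positive cells. Their part in the interferon levels was not tested.

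Cxcl9, which attracts activated T cells, was at 0, 0 and 135 CPM in WT 1, 2 and 3, 567, 2455 and 1768 CPM in Kmt2c KO 1, 2 and 3 and 4.21, 1579 and 1279.9 CPM in Kmt2d KO 1, 2 and 3. It was seen in 25 of 42 fibroblasts of Kmt2c KO, 9 of 67 of Kmt2d KO and 2 of 27 of WT, beside 2.26% of the deeper tumour cells. The 44 cells of Kmt2d KO 1 gave 1 UMI, and the Kmt2d KO libraries overlapped with both other groups. Gbp2 was at 6.46, 0 and 0 CPM in WT, 239, 389.6 and 442 CPM in Kmt2c KO and 16.8, 400.2 and 47.4 CPM in Kmt2d KO. Cxcl10 was at 0, 0 and 57.7 CPM in WT, 29.9, 623 and 926 CPM in Kmt2c KO and 50.5, 276 and 901 CPM in Kmt2d KO. Neither Gbp2 (adjusted p = 0.151, edgeR), Cxcl9 (0.266) nor Cxcl10 (0.240) was called in Kmt2c KO against WT. Ptprc-positive cells held 439.8 CPM of Cxcl9 and 249.6 CPM of Irf1.

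The other lists gave no called gene in the genotype contrasts. The 18 collagen genes summed to 12117, 11566 and 11694 CPM in pooled WT, Kmt2c KO and Kmt2d KO. Medians of the log2 difference of Kmt2c KO from WT were 0.13 for 13 collagens, -0.74 for 29 proteoglycans and glycoproteins, -0.03 for 28 matrix enzymes and -0.53 for 10 contractile genes. They were 0.90 for 17 inflammatory genes (13 above 0), -0.72 for 15 adventitial genes (4 above 0), 0.69 for 7 complement genes (7 above 0), 0.48 for 13 receptors, 0.33 for 14 secreted ligands, -0.05 for 15 transcription factors and 0.15 for 14 immediate early and heat shock genes. The same medians for Kmt2d KO against WT lay between -0.16 for receptors and 0.48 for secreted ligands, and the latter was 0.24 with genes of a group at 0 set to their bound. Summed proliferation genes were at 328, 308 and 1157 CPM in pooled WT, Kmt2c KO and Kmt2d KO. By library they were at 336, 0 and 346 CPM in WT 1, 2 and 3 and 522, 234 and 84.2 CPM in Kmt2c KO. The Kmt2d KO libraries held 1082.5, 1441 and 142 CPM and overlapped with both other groups. With a collagen limit of 100 the pooled values were 345, 373 and 724 CPM.

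The study's short lists varied between libraries, and as the study annotated these cells with them their direction is no independent evidence. Its inflammatory set summed to 4242, 748 and 1365 CPM in WT 1, 2 and 3, 2478, 273 and 84.2 CPM in Kmt2c KO and 4103, 4628 and 853 CPM in Kmt2d KO. Its myofibroblast set summed to 568, 1047 and 1442 CPM in WT, 970, 4072 and 4547 CPM in Kmt2c KO and 413, 502 and 664 CPM in Kmt2d KO. Kmt2c KO 2 and 3 thus stood apart from Kmt2c KO 1 in both sets, low in the first and high in the second. Cthrc1, a myofibroblast gene outside these sets, was at 224, 97.4 and 126 CPM in Kmt2c KO 1, 2 and 3. Sfrp2 was at 552, 19.5 and 21.1 CPM in the same libraries.

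Pooled values show which single genes differed most, under counting error only. Among genes with 50 or more UMIs, libraries did not overlap for 165 of 1233 (13.4%) in Kmt2c KO over WT, 165 of 2012 (8.2%) in Kmt2d KO over WT and 286 of 1846 (15.5%) in Kmt2d KO over Kmt2c KO. Among the 5 largest Kmt2c KO over WT ratios were Spp1 at 187 (33.0 to 7426), the chromatin protein Hmga2 at 76.0 (13.1 to 3051), Gbp2 at 73.4 (12.7 to 2950) and Cxcl9 at 45.6 (21.8 to 115), and those of Spp1, Hmga2 and Gbp2 rest on 1 UMI in WT. The smallest were the opioid precursor Penk at 0.0204, the co-receptor Cdon at 0.0729, Dpp4 at 0.0788, Hmcn1 at 0.101 and the LIM protein Csrp2 at 0.133. Among these the libraries did not overlap for Hmcn1 alone. The Kmt2c KO values of Penk and Dpp4 rest on 4 and 3 UMIs, each from 1 library. WT 1 gave 252 of the 253 UMIs of Penk in WT. In Spp1 1 library, Kmt2c KO 1, gave 84.1% of the Kmt2c KO UMIs, at 1821, 273 and 189 CPM in Kmt2c KO 1, 2 and 3, while tumour cells held 15270.0 and Ptprc-positive cells 844 CPM.

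In Kmt2d KO over WT the largest ratios were Spp1 at 61.0, the cyclin Ccnd1 at 46.4, the ubiquitin-conjugating enzyme Ube2c and the neutrophil chemokine Cxcl2 at 39.9 each and Gbp2 at 32.4, all on 1 UMI in WT. Between 55.4% and 97.4% of the Kmt2d KO UMIs of these came from 1 library. The smallest were the stress gene Ddit4 at 0.262, Penk at 0.290, Itm2a at 0.332, the ligand Wnt2 at 0.341 and Tmem176a at 0.349. In Kmt2d KO over Kmt2c KO Penk (14.2), Csmd1 (10.4), Cxcl2 (at least 10.3-fold higher against a floor of 3 counts over the group of Kmt2c KO libraries, which had none, with a lower counting limit of 8.19), Dpp4 (9.35) and the matricellular gene Sparcl1 (7.96) were highest. Of the Kmt2d KO UMIs 1 library gave 93.2% for Cxcl2 and 89.9% for Csmd1, and the libraries of both genes overlapped. The activin subunit Inhba (0.0449), Ddit4 (0.0877), the urea cycle enzyme Ass1 (0.103) and the chemokine Cxcl14 (0.120) were among the 5 lowest. Cxcl14 was at 219.5, 0 and 38.4 CPM in WT, 1403, 838 and 1979 CPM in Kmt2c KO and 185, 102 and 379 CPM in Kmt2d KO, and its Kmt2c KO libraries stood above all others.

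The last comparison asked whether the knockout contrast in unedited fibroblasts differed from that in the tumour cells of the same 7 libraries. The interaction of class and genotype, with the library as a block, was tested in edgeR over 8730 genes. Effects within a class come from a fit of that class alone, and differences from the joint fit of both classes, so that a difference need not equal 1 effect minus the other. In Kmt2c KO against WT 63 genes (0.722%) differed between the classes, 21 (0.241%) with the higher effect in fibroblasts and 42 (0.481%) with the lower. The Kmt2d KO contrast gave 18 genes (0.206%), 12 (0.137%) higher and 6 (0.0687%) lower. Of the 63 genes 56 were also called without the 6 tumour cells over the collagen limit, and 11 were called whichever library was left out, among them Ly6a, Ly6c2, Spp1, Il33, Plcb1, Eln, Pmepa1, Sod3, Mmp2 and Glis3. Leaving out WT 1 alone left 16 calls in all.

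The complement genes C3, C4b and Cfb and the surface gene Ly6a were called higher in the Kmt2c KO tumour cells (adjusted p = 0.0120, 0.0204, 0.00705 and 0.0116, edgeR), and none of the 4 was called in the fibroblasts. C3 was at 1866, 449 and 846 CPM in WT fibroblasts, 2388, 2552 and 1474 CPM in Kmt2c KO and 2434, 3434 and 1659 CPM in Kmt2d KO. In the tumour cells it was at 2.23, 5.22 and 10.3 CPM in WT, 124, 159 and 209 CPM in Kmt2c KO and 34.8, 234 and 20.5 CPM in Kmt2d KO. Fibroblasts exceeded the tumour cells in every library. The tumour cells of Kmt2c KO and WT did not overlap, whereas their fibroblasts did. The log2 effect of Kmt2c KO was 0.67 in fibroblasts and 4.83 in tumour cells, with a joint-fit difference of -4.20 ± 0.55 (adjusted p = 3.67e-11, edgeR), which missed the threshold without WT 1. The difference was -3.27 ± 0.60 for C4b and -4.34 ± 0.81 for Cfb, which also missed it without WT 1. Cfb was at 0.742 and 0.859 CPM in the tumour cells of WT 1 and 3, under a floor of 3 counts in each. In all 3 of 11 tested complement genes differed in the Kmt2c KO contrast, and C3 differed in the Kmt2d KO contrast as well (-2.58 ± 0.59), which missed it without WT 1 or Kmt2d KO 2.

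Ly6a, a surface protein induced by interferon whose counts may mix with its relatives, was at 2014, 0 and 1096 CPM in WT fibroblasts, 2731, 3058 and 1389 CPM in Kmt2c KO and 2485, 3514 and 1375 CPM in Kmt2d KO. Tumour cells held 58.6, 70.0 and 158 CPM in WT, 1649, 2241 and 3251 CPM in Kmt2c KO and 134, 1139.9 and 156 CPM in Kmt2d KO. The effect of Kmt2c KO was 0.64 in fibroblasts and 4.53 in tumour cells, with -4.13 ± 0.47 in the joint fit (adjusted p = 3.07e-14, edgeR). Matrix genes with the lower effect in fibroblasts included Mmp3, whose tumour effect was 3.53 and whose fibroblast effect was 0.25 (-3.68 ± 0.62 in the joint fit), Dpt (-3.24 ± 0.56) and Clec3b (-3.04 ± 0.53), all of which missed the threshold without WT 1. Mmp3 was at 672, 0 and 0 CPM in Kmt2c KO fibroblasts and 336, 0 and 19.2 CPM in WT fibroblasts. Its fibroblast effect thus rests mostly on 1 library per group. Without each library in turn its difference came as near to 0 as -0.59. The other end of that range depends on the prior count, as the fibroblasts of Kmt2c KO 2 and 3 had no UMI of Mmp3. Sfrp2, Sfrp4, Igfbp5, Gdf10 and Col14a1 were called too, but not without the 6 tumour cells over the collagen limit, so those calls rest on a few cells of Kmt2c KO 1.

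The opposite pattern, a larger effect in fibroblasts, held for Plcb1 and Glis3, whose effects in tumour cells were near 0. The log2 effects of Kmt2c KO on Plcb1 were 4.58 in fibroblasts and 0.18 in tumour cells, with a difference in the joint fit of 4.20 ± 0.61 (adjusted p = 8.21e-09, edgeR). On Glis3 they were 2.74 and -0.43, with 3.01 ± 0.54 in the joint fit (adjusted p = 1.1e-05, edgeR). Il33, an alarmin of stromal cells, went in opposite directions. It was at 142, 0 and 96.1 CPM in WT fibroblasts, 478, 779 and 695 CPM in Kmt2c KO and 88.5, 167 and 142 CPM in Kmt2d KO, and in tumour cells at 315, 271 and 342 CPM in WT, 94.6, 83.5 and 94.7 CPM in Kmt2c KO and 159.9, 82.9 and 166 CPM in Kmt2d KO. The Kmt2c KO fibroblasts lay above the WT fibroblasts, and the Kmt2c KO tumour cells below the WT tumour cells. Effects were 2.41 (not called in fibroblasts alone, adjusted p = 0.0798, edgeR) and -1.78, with 3.99 ± 0.52 in the joint fit (adjusted p = 3.67e-11, edgeR).

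Within the interferon list the effects differed for 2 of 40 genes with the higher effect in fibroblasts and for 3 with the lower. Irf1 rose in both classes, by 4.76 in fibroblasts and 1.53 in tumour cells, and the joint-fit difference of 3.12 ± 0.79 (adjusted p = 0.0148, edgeR) missed the threshold without Kmt2c KO 1, WT 1 or WT 3. For Cxcl9 the effects were 5.16 and -0.20, with 5.07 ± 0.86 in the joint fit (adjusted p = 2.21e-06, edgeR), which missed it without WT 3. Its tumour effect rests on few UMIs. The tumour cells held 0.742 and 13.7 CPM in WT 1 and 3 and 2.82, 7.59 and 5.74 CPM in Kmt2c KO. Rsad2, Ifi27l2a and Ly6a had the lower effect, but Rsad2 and Ifi27l2a missed the threshold without WT 1. Rsad2, at -6.27 with WT 1 kept, then turned positive. As the WT 3 fibroblasts had no UMI of Rsad2, that fitted value depends on the prior count. For Gbp2, at 5.93 in fibroblasts and 2.71 in tumour cells, the difference was not called (adjusted p = 0.231, edgeR), nor was it for Socs3 (0.268) or Hmcn1 (0.561). In the Kmt2d KO contrast the elastic fibre gene Mfap4 (5.04 ± 0.73), the proteoglycan Ogn (3.12 ± 0.51), the growth factor Igf1 (3.45 ± 0.65) and the receptor ligand Gas6 (2.86 ± 0.63) had the higher effect in fibroblasts. Of these Ogn alone was called whichever library was left out.

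**Figure D5:**
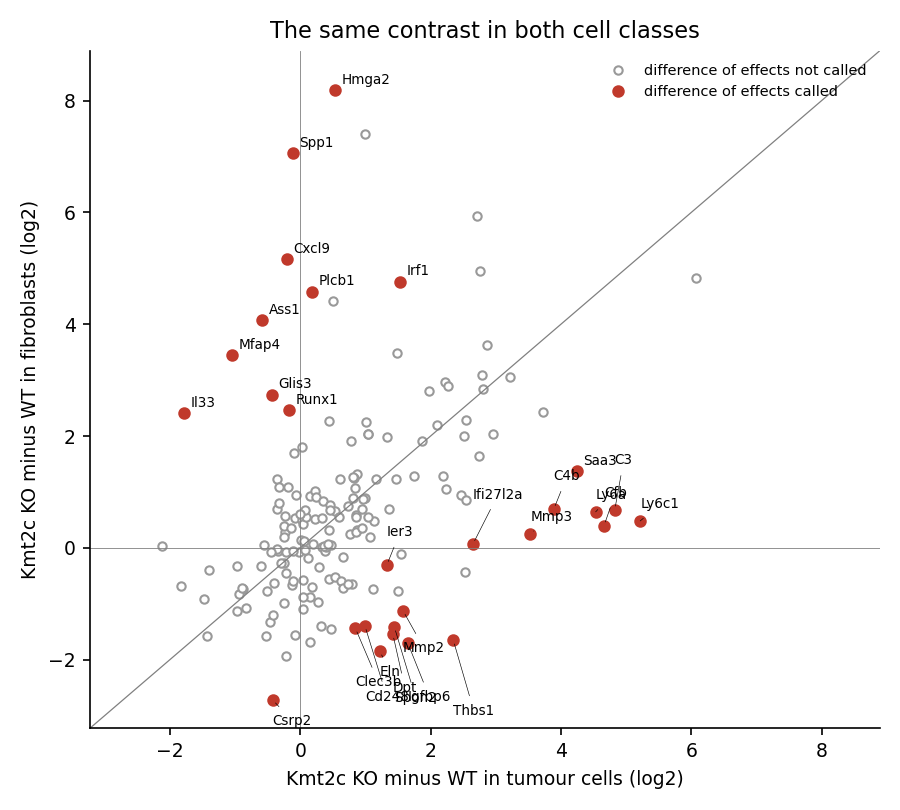
Log2 difference of Kmt2c KO from WT in tumour cells (x axis) against the same difference in fibroblasts (y axis) for 176 named or listed genes tested in both classes, with the line of equal effects. The 28 filled points had a called difference of effects: Plcb1 and Il33 lie above the line, C3 and Ly6a below it near 0 on the y axis.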

How the data were processed

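RNA at the 5′ end of transcripts was counted in single cells of 9 tumours. Per the submitters' processing notes the authors used Cell Ranger 7.0.1 with mm10, and they deposited UMI counts per gene and barcode in 1 aggregated matrix of 89147 barcodes and 585680611 UMIs. For the annotation, a version was not given in the sources used here. A library's group was read from its genotype letter in the aggregation table.

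Barcodes with more than 500 and fewer than 7500 genes and under 15% mitochondrial UMIs were kept. No doublet caller was run. The rule left out cells with UMIs of H2BMc, Krt8, Ptprc, Pecam1 or Rgs5, and cells with other markers of those types stayed in. Counts were summed per library and class and tested with edgeR 4.0.16 in R 4.3.3 (filterByExpr, TMM, quasi-likelihood test, Benjamini-Hochberg adjustment), with the 9 genes of the rule left out of the tests and the library as a block between classes. DESeq2 1.42.0 was an alternative. Shares, exact permutation tests and intervals used Python 3.11.15 with scipy 1.17.1. Intervals on shares are exact binomial (Clopper-Pearson) at 95%, and intervals on pooled ratios are conditional exact ones. Both cover counting error only. The comparisons of fibroblasts with tumour cells and of Kmt2c KO with WT in fibroblasts were tested on simulated data. The Kmt2d KO contrasts and the interaction fit were not.

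A minimum of 20 fibroblasts per library, and a tumour class under the collagen limit of the fibroblasts, had been planned. The first leaves no WT or Kmt2c KO library and the second 6 cells, so minima of 10 and 8 cells and the wider tumour class were used, chosen after seeing the data. Genes are named as the 10 largest called differences in each direction at a mean of 20 CPM or more. These had to go the same way in every library compared. Also named are the 5 most extreme pooled ratios each way, all called genes of the genotype contrasts and up to 4 members of each list. Further examples were chosen after their values were seen. The members and the lists (matrix, contractile, inflammatory, adventitial, receptor, ligand, transcription factor, complement, interferon, MHC class II, proliferation, immediate early and markers of other cell types) were chosen with earlier results of these data known. Alternatives were other normalization, filters, cell limits, thinning to 1000 UMIs and leaving out each library. A few named genes are not reported here.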

Additional observations from a re-analysis of the deposited data

Results flagged for a closer look

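The effect of a knockout on fibroblasts differed from its effect on the matrix-producing tumour cells of the same libraries, by a test of the difference itself (the interaction term in edgeR), for 63 genes in the Kmt2c KO contrast and for 18 in the Kmt2d KO contrast. In the Kmt2c KO contrast the effect on the log2 scale was higher in fibroblasts by 6.75 for Spp1, 4.20 for Plcb1, 4.52 for Ass1, 5.07 for Cxcl9, 3.01 for Glis3 and 3.12 for Irf1. Of these Spp1, Plcb1 and Glis3 were called whichever library was left out, whereas Ass1 was lost without WT 1, Cxcl9 without WT 3 and Irf1 without WT 1, WT 3 or Kmt2c KO 1. For Hmga2 the fitted value of 10.4 depends on the prior count, since the WT fibroblasts that entered the fit had none, and the call was lost without WT 1. The effect was lower in fibroblasts for Csrp2, by -2.47, and for Penk, by -4.47. Both were lost without WT 1 or Kmt2c KO 3, and Penk also without Kmt2c KO 2. Without WT 1 the difference of Penk changed sign, to 1.49. In the Kmt2d KO contrast the differences were 5.14 for Spp1, 5.0 for Ccnd1 and -2.81 for Ddit4. Spp1 and Ccnd1 were lost without Kmt2d KO 1 or WT 1, and Ddit4 was lost without Kmt2d KO 2 or WT 3. Fibroblasts of WT held 1 UMI each of Spp1, Hmga2 and Ccnd1. For Spp1 it lay in WT 1, so that without WT 1 its fitted value depends on the prior count. Tumour cells and Ptprc-positive cells also held Spp1, at 15270 and 844 CPM. By library, tumour cells held Hmga2 at 320 to 978 CPM and Ccnd1 at 464 to 681 CPM. The part of tumour RNA in the differences of these genes was not tested.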

How the results depend on the processing

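No paired analysis was possible because the libraries of the matrix cannot be tied to the replicate numbers of the samples, which leaves the genotypes unpaired. Fibroblasts and tumour cells were paired within libraries, and without that library block 2087 of 6691 tested genes were called. The share of fibroblasts stayed above p = 0.05 in an exact permutation test under all 14 alternatives. Fibroblasts against tumour cells gave 2627 calls of 8436 genes tested, 1672 of 8127 in libraries with 20 or more fibroblasts, 743 of 1755 with each cell thinned to 1000 UMIs, 4609 of 13012 (43.6% higher, against 53.9%) with all Krt8- or H2BMc-positive cells as the tumour class, and 1858 to 2552 without each library in turn. Of the 5925 values of named genes under alternatives 13 reversed. Emilin1 became -0.17 when thinned. With all Krt8- or H2BMc-positive cells Nusap1 became -1.37, Pcna -1.15, Tpx2 -1.32, Ube2c -1.73, Ccna2 -1.40, Tpm2 -0.93, Mki67 -1.46, Ccnb2 -1.18, Cdk1 -1.42, Aurkb -1.47, Top2a -1.23 and Aspn 0.82, and the cause was not tested. The 5 calls of Kmt2c KO against WT became 33 in DESeq2, 125 with no filter on low counts, 27 in a fit of only the 2 groups, 3 with cells of at least 2000 UMIs, 0 when thinned (where fewer genes pass the filter), 54 with a collagen limit of 100, and 0 (without WT 1) to 49 (without Kmt2c KO 1) without each library. All 5 genes kept their direction wherever they were tested. In Kmt2d KO against WT the 0 calls became 24 with no filter, 6 with a collagen limit of 100 and 0 to 3 without each library. In Kmt2d KO against Kmt2c KO they became 20 in DESeq2, 138 with no filter, 21 with a minimum of 10 cells, 47 with a collagen limit of 100 and 0 to 85 without each library. Leaving out WT 1 or WT 3 leaves 1 WT library in these fits, which is then assumed to vary like the other groups. Differences of effects numbered 16 (without WT 1) to 73 for Kmt2c KO and 7 (without Kmt2d KO 1) to 23 for Kmt2d KO without each library, 10 of the latter without WT 3, and Penk ran from -11.36 to 1.49, the latter without WT 1, where Rsad2 turned as well. Summed interferon genes in Kmt2d KO ran from 13756 to 25017 CPM without each library, the study's inflammatory set in Kmt2c KO from 182 (without Kmt2c KO 1) to 1521 CPM and in WT from 1294.7 to 4097.6 CPM and its myofibroblast set in WT from 588 to 1396.9 CPM. Depth limits the genotype contrasts, whose 7 libraries held 47507 to 237416 UMIs of fibroblasts.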
